A study of Mus musculus with 48 samples.

Results

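The genes described here are the cold-inducible RNA-binding protein genes *Cirbp* and *Rbm3*, the 4 CDC-like kinase genes *Clk1*, *Clk2*, *Clk3* and *Clk4*, and *Srsf5*, which encodes a splicing factor of the serine- and arginine-rich (SR) family. They were taken by symbol from the batch-corrected table and are 7 of its 19601 protein-coding genes. All 7 passed the filter on low counts, which kept 14839 genes. The genes were selected on measured values of these same mice, and which contrast was used is not recorded. Differences that involve monomer mice at 21% O2 were already known, so values from comparisons with that group are given below as a description and support nothing by themselves. The other comparisons are not known to be free of the selection.

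Bulk RNA-seq of the substantia nigra (SN) was performed in 48 male C57BL/6J mice, 12 in each of 4 groups. At 121 days of age each mouse received an injection into the right striatum of either α-synuclein preformed fibrils (PFF), which seed aggregation of the mouse's own α-synuclein, or monomeric α-synuclein as the control, and it then lived in a chamber with 21% or 11% O2. The SN was harvested 90 to 98 days after injection in 3 harvest batches. The authors kept 42 mice after a principal components analysis: 11 monomer and 12 PFF mice at 21% O2, and 9 monomer and 10 PFF mice at 11% O2.

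All mice had the same strain and sex and carried no transgene, and the fibrils were given on one side only. The study's methods have hypoxia running from shortly after the injection to harvest, whereas the deposited design text starts it midway. Which schedule applied to these mice is not settled by the labels alone. In the paper, the experiment with delayed hypoxia lists no monomer mice at 11% O2, a group that is present here. Batch 1 held all 4 groups, batch 2 had no monomer mice at 11% O2 and batch 3 no monomer mice at 21% O2. Body temperature was not analysed here.

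CIRBP and RBM3 are small proteins with a single RNA recognition motif whose transcripts rise on mild cooling of cells or of the brain; both bind mRNAs and affect their stability and translation, and RBM3 is known for preserving synapses in cooled mice. CLK kinases sit in the nucleus and phosphorylate SR proteins, which changes where those proteins reside and which exons they help to include, and their activity rises as temperature falls. *Clk1* and *Clk4* are the closest relatives in the family, and much of their RNA is held in the nucleus with introns retained until the cell splices it.

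*Cirbp* lies on chromosome 10 of GRCm38 from 80165985 to 80172786 on the plus strand (ENSMUSG00000045193.13), and *Rbm3* on chromosome X from 8138975 to 8145880 on the minus strand (ENSMUSG00000031167.16). The kinase genes lie on chromosome 1 from 58410189 to 58424066 (*Clk1*, minus strand), chromosome 3 from 89164795 to 89176921 (*Clk2*, plus strand), chromosome 9 from 57750624 to 57765860 (*Clk3*, minus strand) and chromosome 11 from 51261730 to 51281766 (*Clk4*, plus strand). *Srsf5* lies on chromosome 12 from 80945504 to 80950507 on the plus strand. The authors counted reads without regard to strand, so reads from a stretch that overlaps a gene on the other strand cannot be told apart. *Rbm3* shares 452 bases of its span with the antisense gene *Rbm3os*, *Clk3* shares 1876 bases with *Edc3*, and *Clk4* shares 1317 bases with *BC049762*.

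The promoter of *Cirbp* is shown because this gene differed most between the groups and because a mild cold-responsive element, an octamer with the letters TCCCCGCC, is known from work on its promoter. RefSeq's GRCm38.p6 table of promoter windows, each holding 250 bases before and 50 bases after an annotated start, gave 6 windows for 5 of the 7 genes, and *Rbm3* and *Clk1* had no entry. The stretch below is chr10:80167589-80167777 on the plus strand, with the octamer in capitals.
Cirbp promoter: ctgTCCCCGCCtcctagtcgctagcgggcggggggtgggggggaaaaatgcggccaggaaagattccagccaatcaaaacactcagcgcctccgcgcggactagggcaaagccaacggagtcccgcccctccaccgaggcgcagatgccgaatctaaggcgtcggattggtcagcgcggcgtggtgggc
The octamer began 247 bases before the RefSeq transcript start, and on either strand it was absent from the other *Cirbp* window and from the windows of *Clk2*, *Clk3*, *Clk4* and *Srsf5*. Both *Cirbp* windows lie inside the annotated span of the gene, which starts at 80165985. The bases before that start were not searched. Searched on both strands, 5.38% of all 32851 promoter windows held it. The GC box GGGCGG, a common promoter motif, was in 6 of the 6 windows and in 35.7% of all windows. The core of the hypoxia response element, ACGTG, was in the windows of *Clk2* and *Clk3* and in 19.6% of all windows; the heat shock half-site pair GAANNTTC was in 0 of the 6 windows and in 7.86% of all windows. A match is a string of letters, and binding was not measured.

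On the scale of batch-corrected TPM, which scales counts by gene length and by depth, *Srsf5* had the highest level of the 7 genes and the 4 kinases spanned a narrow range. The mean ± SD over the 42 mice was 448 ± 31.9 for *Srsf5*, 159.2 ± 32.7 for *Cirbp*, 93.6 ± 11.1 for *Rbm3*, 82.5 ± 10.8 for *Clk1*, 73.2 ± 7.16 for *Clk4*, 39.7 ± 3.25 for *Clk3* and 33.3 ± 2.29 for *Clk2*. In this order, the lowest *Srsf5* value lay above the highest *Cirbp* value and the lowest *Clk4* value above the highest *Clk3* value, and the ranges of all other neighbours overlapped. The coefficient of variation over all 42 mice was 20.5% for *Cirbp* and 6.89% for *Clk2*, the largest and smallest of the 7. Each of the 42 mice had between 12902996 and 17120921 counts on genes, and over all 48 mice *Cirbp* received between 444 and 2374 counts and *Clk2*, the gene with the fewest, between 141 and 877.

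*Cirbp* was lowest in monomer mice at 21% O2 and about 1.5 times that level in each of the other 3 groups. In the 11 monomer mice at 21% O2, the lowest corrected TPM was 86.8, the median 121.3 and the highest 153.7 (mean 116.5 ± 19.0, SD). The 12 PFF mice at 21% O2 ranged from 127.5 to 210.9 with a median of 183.2 (mean 176.4 ± 28.4, SD). All 12 PFF mice lay above the median of the monomer mice, and 9 of the 12 lay above every monomer mouse, so the groups overlapped; 0.0404% of all genes did not overlap in that comparison. The fitted difference was 0.62 on the log2 scale (SE 0.0790), or 53.4% higher with PFF.

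The 9 monomer mice at 11% O2 had *Cirbp* between 154.1 and 209.5 TPM with a median of 174.6 (mean 178.5 ± 19.9, SD), so they did not overlap the monomer mice at 21% O2. Groups that do not overlap were found for 0.391% of all genes in that comparison. The log2 difference for 11% against 21% O2 in monomer mice was 0.62 (SE 0.0841), or 53.6% higher. The 10 PFF mice at 11% O2 were the most uniform group, from 157.0 to 182.3 TPM with a median of 167.7 (mean 168.3 ± 7.24, SD).

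*Rbm3* had the same order of group medians as *Cirbp*, with smaller differences. Monomer mice at 21% O2 ranged from 69.1 to 93.0 TPM with a median of 81.2 (mean 82.6 ± 8.32, SD, n = 11), and PFF mice at 21% O2 from 87.0 to 119 with a median of 101 (mean 101 ± 9.30, SD, n = 12). The ranges overlapped, with 9 of 12 PFF mice above every monomer mouse. The log2 difference was 0.31 (SE 0.0553), or 23.8% higher with PFF. Monomer mice at 11% O2 ranged from 81.0 to 109 TPM with a median of 98.4 (mean 96.0 ± 8.25, SD, n = 9), and their log2 difference from monomer mice at 21% O2 was 0.22 (SE 0.0594). PFF mice at 11% O2 lay between 81.3 and 113 TPM with a median of 92.8 (mean 94.8 ± 9.64, SD, n = 10).

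**Figure D1:**
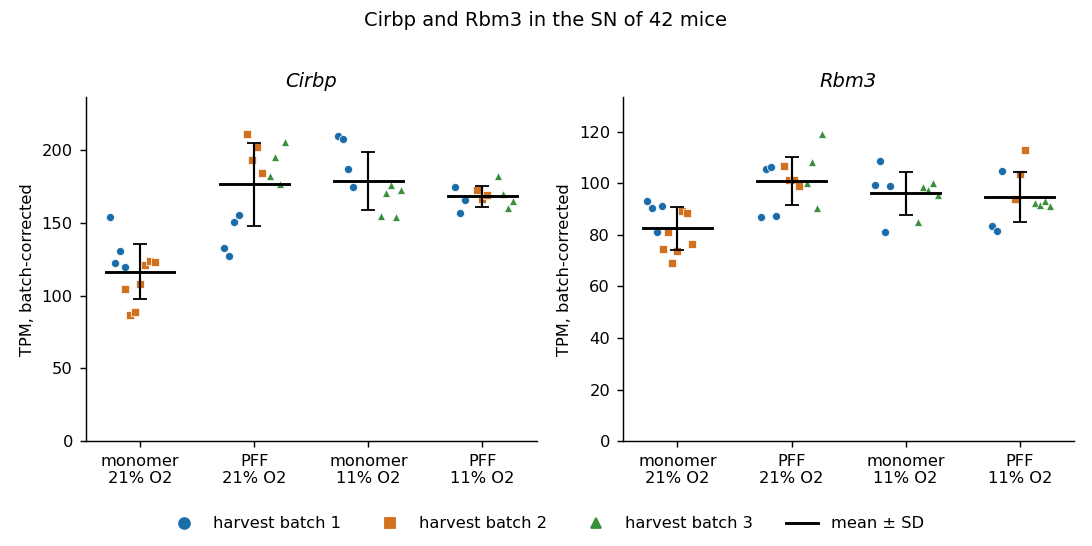
Batch-corrected TPM of *Cirbp* (left) and *Rbm3* (right) in the SN, 1 point per mouse, shaped and coloured by harvest batch, with the mean and SD of each group. The monomer mice at 21% O2 sit lowest for both genes, with means of 116.5 and 82.6 TPM, and the *Cirbp* values of monomer mice at 11% O2 start at 154.1, above all of them.

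A gene is called below at a Benjamini-Hochberg adjusted p under 0.05 in edgeR's quasi-likelihood test, over all genes tested, with an absolute log2 fold change above 0.25. For PFF against monomer at 21% O2, *Cirbp* and *Rbm3* were called higher, 2 of the 7 genes, where 2.29% of all genes were called higher and 3.7% in either direction. For 11% against 21% O2 in monomer mice, *Cirbp* was called higher, 1 of 7, where 4.68% of all genes were called higher and 7.23% in either direction; *Rbm3* met the adjusted p but not the fold threshold. The term for the interaction, the PFF effect at 11% O2 minus that at 21% O2, was -0.69 (SE 0.116) for *Cirbp* and -0.31 (SE 0.0821) for *Rbm3*, and both were called lower, where 1.04% of all genes were called lower and 2.14% in either direction. These 3 comparisons share the monomer mice at 21% O2, and the choice of genes may rest on them, so nothing is read from the counts.

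In the comparisons without monomer mice at 21% O2, none of the 7 genes was called. Between PFF and monomer mice at 11% O2, the log2 difference of *Cirbp* was -0.07 (95% interval -0.24 to 0.10, adjusted p = 1.00 in edgeR's test), and that of *Rbm3* was -0.0044 (95% interval -0.13 to 0.12, adjusted p = 1.00). Over all genes 0% were called there with edgeR. An unadjusted p under 0.05 was reached by 581 of 14839 genes and by 0 of the 7, which at that share says little about the 7. DESeq2 called 1 gene, none of the 7. For 11% against 21% O2 in PFF mice, *Cirbp* differed by -0.07 (95% interval -0.23 to 0.09, adjusted p = 0.809 in edgeR's test) and *Rbm3* by -0.09 (95% interval -0.20 to 0.0251, adjusted p = 0.605), where 0.58% of all genes were called. There 1588 of 14839 genes reached an unadjusted p under 0.05 and 0 of the 7 did, which again says little. DESeq2 and limma called 0 of the 7. These intervals do not show that the levels were equal.

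**Figure D2:**
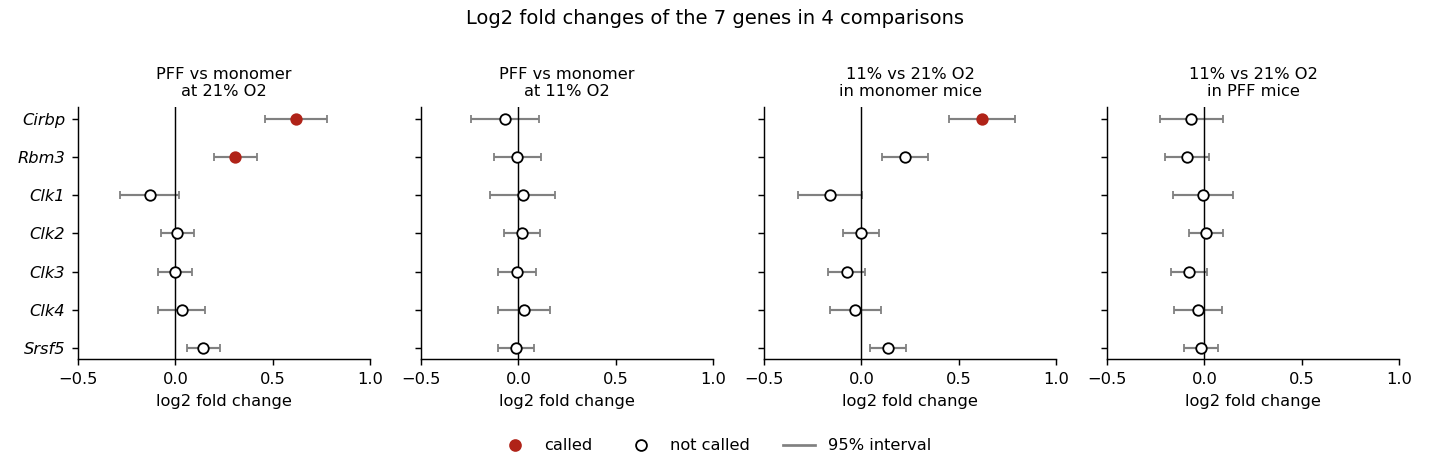
Log2 fold change of the 7 genes (rows) in 4 comparisons (panels), with 95% intervals from edgeR's fit; filled points are called genes. *Cirbp* stands at 0.62 in both comparisons with monomer mice at 21% O2 and at -0.07 in the other 2, and the intervals of *Clk1*, *Clk2*, *Clk3* and *Clk4* span 0 in all 4 panels.

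The size of the *Cirbp* difference was not the same in each harvest batch. For this gene and the others, a group within a batch holds only 3 to 7 mice. The share of all genes without overlap within a batch was not counted, so overlap there is a description only. Before correction, the 4 monomer mice at 21% O2 of batch 1 had between 107.7 and 135.9 TPM (mean 118.0) and the 4 PFF mice between 120.1 and 143.7 (mean 132.4), so they overlapped. In batch 2 the 7 monomer mice lay between 74.2 and 107.8 TPM (mean 93.6) and the 4 PFF mice between 160.4 and 184.9 (mean 172.9), without overlap. The log2 difference was 0.19 (SE 0.0852) when batch 1 was fitted alone and 0.89 (SE 0.0889) in batch 2 alone, where 2.1% of all genes were called higher, and the gene was not called in batch 1; the difference between the batches was not tested.

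Hypoxia in monomer mice can be read within batch 1 only. There *Cirbp* was 177.1 TPM on average at 11% O2 (161.7 to 189.5, n = 4) against 118.0 at 21% O2, without overlap, and the log2 difference was 0.58 (SE 0.0848), close to the value over all batches. In PFF mice the direction changed between batches: the mean at 11% O2 was 1.15 times that at 21% O2 in batch 1 and 0.854 times in batch 2, both without overlap, and 0.889 times in batch 3, with overlap. These ratios come from 3 or 4 mice in each group, and the pooled value near 0 averages over them.

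For *Rbm3*, the PFF mice at 21% O2 of batch 1 averaged 100 TPM (91.8 to 109) and the monomer mice 91.0 (84.0 to 95.3), with overlap. In batch 2 the PFF mice averaged 84.5 (81.8 to 88.5) and the monomer mice 65.3 (56.9 to 74.2), without overlap. Monomer mice at 11% O2 in batch 1 averaged 101 TPM, 1.11 times the mean at 21% O2, and the groups overlapped. *Rbm3* was not called in either comparison within batch 1. No batch other than batch 1 holds monomer mice at both O2 levels, so outside it batch and O2 cannot be told apart for monomer mice except through the correction.

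**Figure D3:**
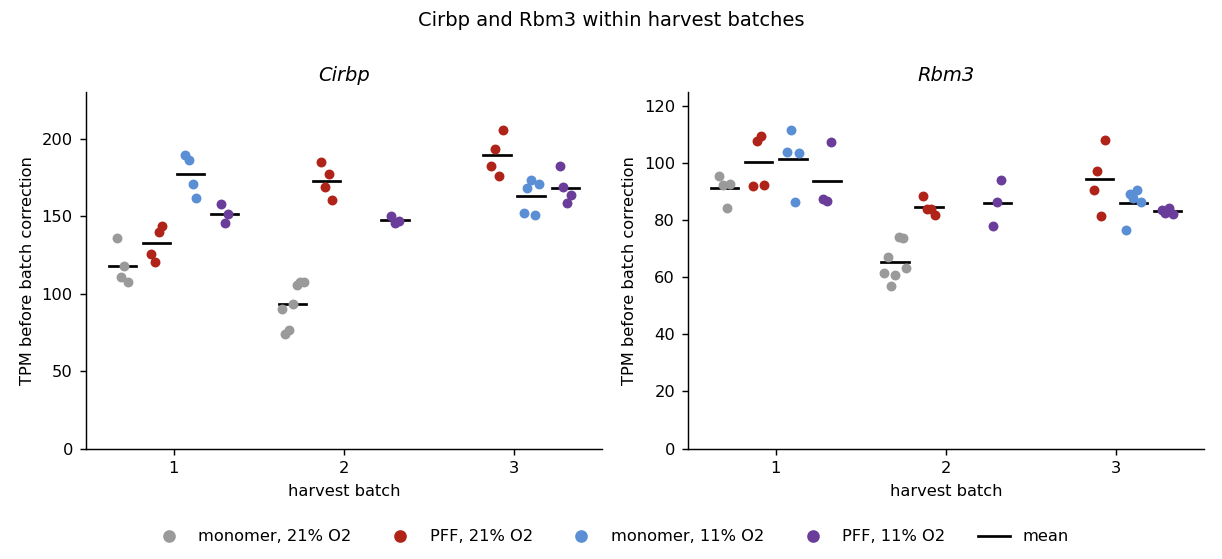
TPM before batch correction of *Cirbp* (left) and *Rbm3* (right), 1 point per mouse, by harvest batch and group, with group means as bars. The gap between monomer and PFF mice at 21% O2 is wide in batch 2 (*Cirbp* means of 93.6 and 172.9) and narrow in batch 1 (118.0 and 132.4), and monomer mice are missing at 11% O2 in batch 2 and at 21% O2 in batch 3.

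The 6 mice that the authors left out were not used to fit any of these values. The monomer mouse at 21% O2 left out of batch 2 had 99.7 TPM of *Cirbp* before correction, inside the range of its group and batch. The 3 monomer mice at 11% O2 left out of batch 3 had 154.9, 157.2 and 183.7 TPM, against 150.8 to 173.5 in the kept mice. The 2 PFF mice at 11% O2 left out had 164.8 TPM in batch 1, against 145.6 to 157.7 in the kept mice, and 213.96 TPM in batch 2, against 145.5 to 150.0. Both therefore lay above all kept mice of their group and batch. The mouse with 164.8 TPM had 3134594 counts on genes, the fewest of the 48. *Rbm3* in the 6 mice ranged from 73.5 TPM, in the monomer mouse at 21% O2, to 97.3 TPM, in the PFF mouse of batch 1.

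A processed pseudogene, *Rbm3-ps*, can share reads with *Rbm3*, since reads with several alignments were counted at the primary one. In a fit of the counts before correction over all 18293 genes that passed the filter, with batch as a covariate, *Rbm3-ps* was 0.75 higher on the log2 scale (SE 0.207, called) for PFF at 21% O2, where 4.05% of all genes were called. In that comparison the antisense gene *Rbm3os* differed by 0.0251 (SE 0.226) and *Rbm3* itself by 0.31 (SE 0.0571). How many reads each took from the other was not tested.

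None of the 4 kinase genes was called in any of the 5 comparisons. *Clk1*, the founding member of the family, had the widest spread between groups: 80.3 to 105 TPM with a median of 87.8 in monomer mice at 21% O2, 59.1 to 102 with a median of 77.2 in PFF mice at 21% O2, 61.2 to 98.1 with a median of 81.1 in monomer mice at 11% O2 and 66.3 to 93.7 with a median of 79.4 in PFF mice at 11% O2. The groups overlapped, although 7 of the 12 PFF mice at 21% O2 lay below every monomer mouse. Its log2 difference was -0.13 (SE 0.0747) for PFF at 21% O2 and -0.16 (SE 0.0806) for 11% O2 in monomer mice.

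Within batches, *Clk1* did not keep 1 direction. The ratio of PFF to monomer means at 21% O2 was 1.07 in batch 1 and 0.807 in batch 2, where the groups did not overlap and the gene was called lower when the batch was fitted alone, as were 1.81% of all genes. The ratio of 11% to 21% O2 in monomer mice was 0.861 in batch 1, without overlap between 4 and 4 mice. In PFF mice the same ratio was 0.859, 1.14 and 1.06 in batches 1, 2 and 3. For 11% O2 the fit gave PFF mice a *Clk1* difference of 0.0213 from monomer mice (95% interval -0.14 to 0.19, adjusted p = 1.00 in edgeR's test).

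*Clk4*, the closest relative of *Clk1*, had group means between 71.7 and 74.4 TPM and log2 differences between -0.0332 and 0.0320 in the 4 comparisons of groups. *Clk2* had group means between 33.2 and 33.3 TPM, with all mice between 27.1 and 39.5. *Clk3* had means of 41.0, 40.4, 38.8 and 38.2 TPM in monomer and PFF mice at 21% O2 and monomer and PFF mice at 11% O2, and its log2 difference for 11% against 21% O2 in PFF mice was -0.08 (95% interval -0.17 to 0.0111, adjusted p = 0.536 in edgeR's test).

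*Srsf5*, a splicing factor that binds exonic enhancers and is phosphorylated by CLK kinases, followed *Cirbp* and *Rbm3* at a small size. Monomer mice at 21% O2 ranged from 385.5 to 465.1 TPM with a median of 413.5, and the medians of the other groups were 459.4 in PFF mice at 21% O2, 467.5 in monomer mice at 11% O2 and 447.1 in PFF mice at 11% O2. All groups overlapped, and 11 of 12 PFF mice at 21% O2 lay above the median of the monomer mice. Its log2 differences were 0.14 (SE 0.0416) for PFF at 21% O2 and 0.14 (SE 0.0446) for 11% O2 in monomer mice; both met the adjusted p, which 7.59% and 13.2% of all genes met, but not the fold threshold. In the comparisons without monomer mice at 21% O2 the values were -0.0107 (95% interval -0.10 to 0.0813) for PFF at 11% O2 and -0.0180 (95% interval -0.10 to 0.0678) for 11% O2 in PFF mice.

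**Figure D4:**
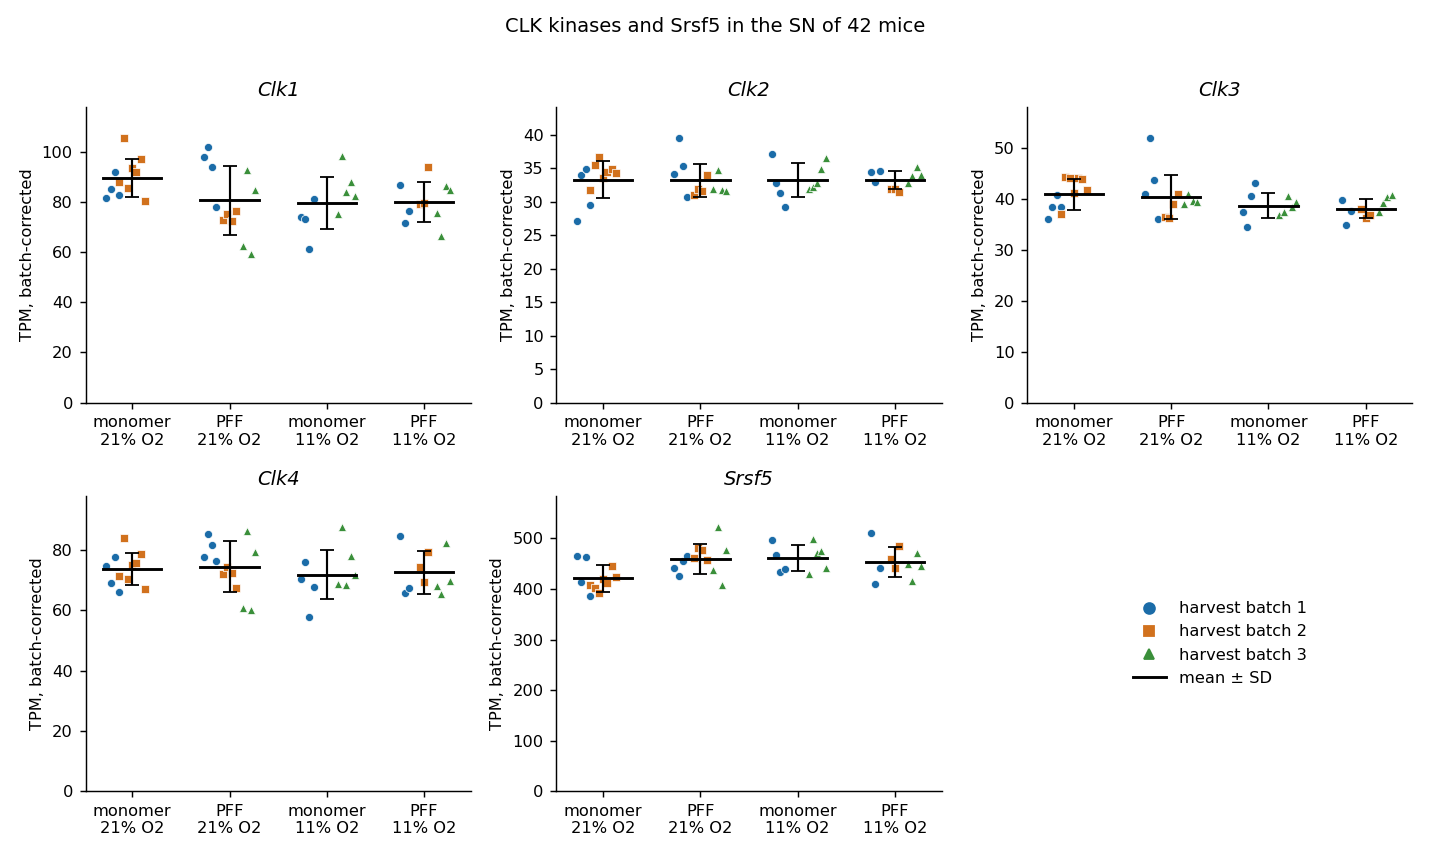
Batch-corrected TPM of *Clk1*, *Clk2*, *Clk3*, *Clk4* and *Srsf5* in the SN, 1 point per mouse, shaped and coloured by harvest batch, with the mean and SD of each group. The groups overlap for all 5 genes; the median of *Srsf5* is 413.5 in monomer mice at 21% O2 and at least 447.1 in the other 3 groups.

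The other SR protein genes did not follow *Srsf5* as a group. Of 12 SR protein and TRA2 genes, 0 were called for PFF at 21% O2, with 3 above 0 and 9 below and a median log2 difference of -0.0237, beside 0.0008 over all genes. *Tra2a*, a splicing activator that binds GAA-rich exons, was called lower with 11% O2 in monomer mice (-0.27, SE 0.0770), where 2.55% of all genes were. It was the only one of the 12 called there. *Srsf9* was called for the interaction alone (0.30, SE 0.0798), which was called higher for 1.1% of all genes. The 14 other SR protein kinases and related kinases that were tested, among them the SRPK, DYRK and HIPK families, had 0 calls in each of the 5 comparisons, and 13 of the 14 were below 0 for PFF at 21% O2, with a median of -0.0718.

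Of the 16 hnRNP genes and RBMX relatives, which encode nuclear RNA-binding proteins of the same broad kind as CIRBP and RBM3, 2 were called in each comparison with monomer mice at 21% O2, where the share of all genes was 3.7% for PFF at 21% O2, 7.23% for 11% O2 in monomer mice and 2.14% for the interaction. *Hnrnpdl*, whose protein regulates splicing, including that of its own transcript, was higher for PFF at 21% O2 (0.26, SE 0.0412) and for 11% O2 in monomer mice (0.25, SE 0.0441). *Hnrnpab*, which encodes a protein of mRNA packaging and transport, was lower in both (-0.28, SE 0.0609, and -0.28, SE 0.0659) and was called higher for 11% O2 in PFF mice (0.29, SE 0.0624), where 0.438% of all genes were. Among 10 cold shock domain genes and genes of the RBM3 pathway, *Creb1*, which encodes a transcription factor of neuronal activity, was called lower for 11% O2 in monomer mice (-0.26, SE 0.0636), where 2.55% of all genes were. *Ybx1*, a cold shock domain protein, was called higher for the interaction (0.34, SE 0.0864), where 1.1% of all genes were. None of the 10 was called for PFF at 21% O2 or for either comparison without monomer mice at 21% O2. *Ntrk2* and *Rtn3*, which encode the receptor TrkB and a reticulon placed in the RBM3 pathway, were not called in any comparison.

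Of 14 genes of the heat shock response, made up of chaperone and co-chaperone genes that rise on warming and *Hsf1*, which encodes their transcription factor, 7 were called lower for PFF at 21% O2, where 1.41% of all genes were, and all 14 had values below 0. For 11% O2 in monomer mice 9 were called lower, where 2.55% of all genes were, and all 14 had values below 0. *Cirbp* was called higher in both comparisons. For PFF at 21% O2, *Dnajb1*, a co-chaperone of HSP70, differed by -0.71 (SE 0.0691), *Hspa1a*, an inducible HSP70, by -1.60 (SE 0.221), and *Hsph1*, a nucleotide exchange factor of HSP70, by -0.48 (SE 0.0666); *Hspa1b* differed by -2.39 (SE 0.351) but is a near-identical copy of *Hspa1a*, so the split of reads between them is uncertain. None was called for PFF at 11% O2, where 10 of 14 were above 0, or for 11% O2 in PFF mice, where 13 of 14 were below 0. These comparisons share the same mice as those of *Cirbp*, and the list was drawn up with these results known.

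Nuclear-retained noncoding RNAs were read from the fit of the counts before correction. Of 7 such RNAs, *Neat1*, which builds paraspeckles, was called higher for 11% O2 in monomer mice (0.34, SE 0.0921) and *Mirg* lower (-0.37, SE 0.118), where 4.66% of all genes were called. None was called in the other 4 comparisons. For PFF at 21% O2, where 4.05% of all genes were called, *Neat1* met the adjusted p but not the fold threshold (0.24, SE 0.0777). *Malat1* differed by 0.13 (SE 0.0871) for PFF at 21% O2.

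RNA of dopaminergic neurons was present in the dissected tissue of every mouse, at levels that differed widely. *Th*, the rate-limiting enzyme of dopamine synthesis, ranged from 96.1 to 1079 TPM and the dopamine transporter gene *Slc6a3* from 263 to 1932 TPM. Whether the dissections differed between mice was not tested. None of the 8 dopaminergic, 5 astrocyte or 5 microglia markers was called in any comparison, where between 0% and 7.23% of all genes were. The SEs of the dopaminergic markers were wide. For PFF at 21% O2, *Th* differed by 0.0515 (SE 0.314) and *Slc6a3* by 0.0976 (SE 0.273) on the log2 scale. The lack of a call therefore does not show that their levels were equal. The 5 endothelial markers were all called higher for 11% O2 in monomer mice, with a summed level of 255.4 to 474.9 TPM against 189.7 to 253.1 TPM at 21% O2, and 2 of the 6 oligodendrocyte markers, *Cnp* and *Mog*, were called higher there, where 4.68% of all genes were. All 6 oligodendrocyte markers were above 0 in that comparison and for PFF at 21% O2, where 0 were called, and below 0 for PFF at 11% O2, where 0 were called; *Mog*, a myelin protein gene, was called lower for the interaction (-0.33, SE 0.0865). For PFF at 21% O2, where *Cirbp* rose as much, 1 of the 5 endothelial markers was called higher, as were 2.29% of all genes. The summed level ranged from 160.8 to 285.3 TPM. For 11% O2 in PFF mice, where *Cirbp* was not called, 2 of the 5 were called higher, as were 0.438% of all genes. The summed level ranged from 264.0 to 345.4 TPM. Choroid plexus markers summed to between 4.67 and 317.4 TPM, with 0 of the 4 tested called. The part of these cell types in the values of *Cirbp* and *Rbm3* was not tested, and in bulk tissue a larger share of a cell type cannot be told apart from more RNA per cell.

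Whether the 7 genes vary together from mouse to mouse was asked with a measure that does not use the differences between groups. Log2(TPM + 1) before correction was centred within each group and batch over the 42 mice, and the 21 pairs were tested with 100000 two-sided permutations of mice within group and batch, with p adjusted over the 21 pairs. Of these, 7 pairs passed, all with r above 0. They joined *Clk1*, *Clk4* and *Srsf5* in 1 set and *Clk2* and *Clk3* in another. The share of all gene pairs that would pass was not counted, so the number of pairs and the sets are a description only. Many genes outside the 7 had r as high with members of the first set, as the ranks below show.

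*Clk1* and *Clk4* varied together most (Pearson r = 0.858, Spearman rho = 0.827, permutation p = 1e-05, the smallest that the permutations can give, adjusted p = 0.00021). Without the 2 mice farthest from the median, r was 0.815, and within batches 1, 2 and 3 it was 0.689, 0.861 and 0.926. Among all 14838 other genes, *Clk4* had the highest r with *Clk1*, and *Clk1* ranked 5 for *Clk4*.

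*Srsf5* varied with *Clk4* (r = 0.750, rho = 0.706, permutation p = 7e-05, adjusted p = 0.000735; r = 0.672 without the 2 farthest mice; 0.706, 0.334 and 0.889 within the batches). With *Clk1* the pooled value was r = 0.680 (rho = 0.618, permutation adjusted p = 0.00252; r = 0.544 without the 2 farthest mice), but within batches it was 0.242, 0.251 and 0.933, so it rested largely on batch 3. The other pair of kinases, *Clk2* and *Clk3*, had r = 0.614 (rho = 0.553, permutation adjusted p = 0.00182; r = 0.557 without the 2 farthest mice; 0.445, 0.863 and 0.556 within the batches). By r among all 14838 other genes, *Srsf5* ranked 77 for *Clk4* and 84 for *Clk1*. *Clk3* ranked 18 for *Clk2*, and *Clk2* ranked 62 for *Clk3*. None of the 6 pairs between the sets passed. The highest was *Clk1* with *Clk3* (r = 0.313, rho = 0.322, permutation adjusted p = 0.0812; r = 0.326 without the 2 farthest mice; 0.536, 0.258 and 0.293 within the batches) and the lowest *Clk3* with *Srsf5* (r = 0.00109, rho = -0.0699, permutation adjusted p = 0.994).

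The cold-inducible genes joined the first set in different ways, and neither was among the genes closest to it. By r among all 14838 other genes, *Cirbp* ranked 608 for *Srsf5*, and *Rbm3* ranked 858 for *Clk1* and 1665 for *Clk4*. In the other direction, *Srsf5* ranked 20 for *Cirbp*, and *Clk1* and *Clk4* ranked 63 and 156 for *Rbm3*. *Cirbp* varied with *Srsf5* (r = 0.491, rho = 0.538, permutation adjusted p = 0.00311; r = 0.461 without the 2 farthest mice; 0.801, 0.640 and 0.351 within the batches) but had r = -0.0397 with *Clk1* (rho = -0.0325, permutation adjusted p = 0.846). *Rbm3* varied with *Clk1* (r = 0.513, rho = 0.535, permutation adjusted p = 0.0167; r = 0.407 without the 2 farthest mice; 0.331, 0.539 and 0.730 within the batches) and with *Clk4* (r = 0.466, rho = 0.527, permutation adjusted p = 0.0388; r = 0.353 without the 2 farthest mice; 0.286, 0.526 and 0.663 within the batches). *Cirbp* and *Rbm3* themselves had r = 0.374 (rho = 0.324, permutation adjusted p = 0.0818; r = 0.374 without the 2 farthest mice; 0.127, 0.489 and 0.594 within the batches), which did not pass.

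**Figure D5:**
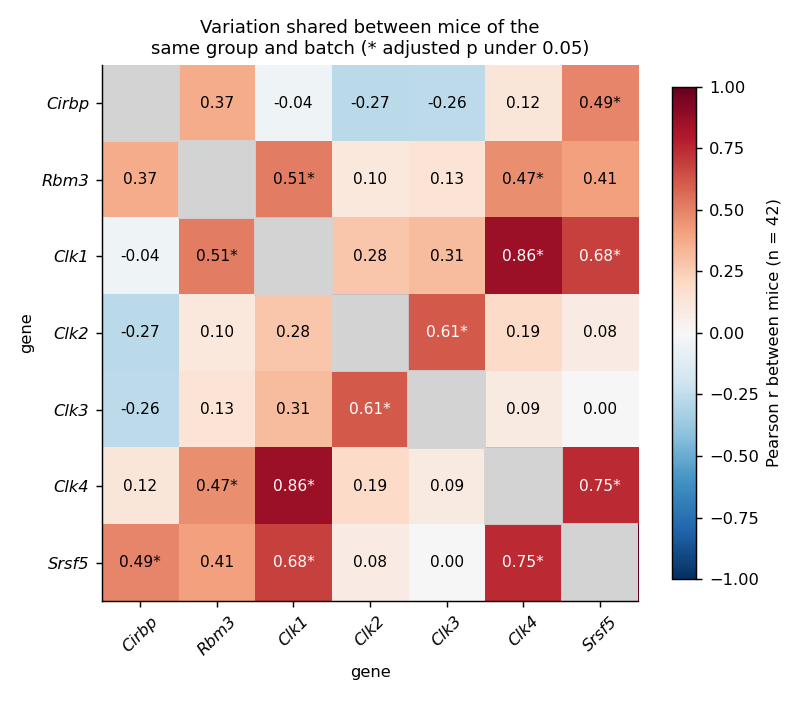
Pearson r between the 7 genes over 42 mice, from log2(TPM + 1) before correction centred within group and batch; an asterisk marks an adjusted p under 0.05 over 21 pairs. *Clk1*, *Clk4* and *Srsf5* form a block with r from 0.68 to 0.86, *Clk2* and *Clk3* share 0.61, and *Cirbp* passes with *Srsf5*.

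A measure taken from each library passed with *Clk4* and *Clk1* of the first set but not with *Srsf5*. What drives that measure was not tested. In the same way of centring, the share of a library's counts on mitochondrial genes, which ranged from 3.06% to 4.63% over the 42 mice, had r = 0.712 with *Clk4* (rho = 0.607, permutation adjusted p = 0.00777 over 21 tests; r = 0.663 without the 2 farthest mice), r = 0.613 with *Clk1* (rho = 0.576, permutation adjusted p = 0.0176; r = 0.545 without the 2 farthest mice) and r = 0.512 with *Srsf5* (rho = 0.476, permutation adjusted p = 0.0642; r = 0.412 without the 2 farthest mice). For *Cirbp* it was 0.0640 (rho = 0.0881, permutation adjusted p = 0.828; r = 0.105 without the 2 farthest mice) and for *Rbm3* 0.160 (rho = 0.114, permutation adjusted p = 0.818; r = -0.00763 without the 2 farthest mice). The part of this share in the correlations of the kinases was not tested. Neither the counts on genes nor the level of *Malat1* passed with any of the 7 genes.

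The genes most like each member, by the same centred r over 42 mice and with libraries and their depth in common, are given as a description. For *Clk4* they were *Ints6l*, *Zcchc7*, *Mdm4*, *Zfp280c* and *Clk1*, with r from 0.858 to 0.894, and for *Clk1* they were *Clk4*, *Hnrnpa2b1*, *Cntrl*, *Zkscan3* and *Cav1*, with r from 0.784 to 0.858. *Srsf5* was most like *Rps3a1*, *Rpl5*, *Sec11c*, *Prpf38a* and *Rpl13* (0.803 to 0.823), of which 3 encode ribosomal proteins and *Prpf38a* a spliceosome protein. *Clk3* was most like *Kmt5c*, *Creld2*, *Irf3*, *Clasrp* and *Slc25a42* (0.725 to 0.791), where *Clasrp* encodes an SR-like protein that binds CLK kinases. *Clk2* was most like *Map3k3*, *Rgl2*, *Notch4*, *Gm49396* and *Irf3* (0.666 to 0.723).

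For the cold-inducible genes the highest values were smaller. *Rbm3* was most like *Rbms1*, *Tmem161b*, *Per3*, *Hnrnpdl* and *Adam18* (0.614 to 0.672), where *Per3* is a gene of the circadian clock. *Cirbp* was most like *BC024139*, *Tarbp2*, *Ptpmt1*, *Zfp688* and *Strada* (0.579 to 0.618), where *Tarbp2* encodes a partner of Dicer. At the other end, chosen after the values were seen, the 2 genes with the lowest r to *Cirbp* of all 14838 were the heat shock genes *Dnajb1* (r = -0.621, rho = -0.681) and *Hspa1a* (r = -0.608, rho = -0.627), and *Hspd1*, a mitochondrial chaperone, was also among the 5 lowest (r = -0.592, rho = -0.589). The differences between groups had been removed before these values were computed, but the mice are those on which the genes were selected. Within group and batch, *Cirbp* varied most in monomer mice at 21% O2 of batch 2, with a coefficient of variation of 15.2% before correction. How far the negative values rest on those mice was not tested, and r was not computed for these genes within batches.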

How the data were processed

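Poly(A) RNA of dissected SN was sequenced by the authors, who removed duplicates, used mm10 as the genome and obtained gene counts with featureCounts 2.0.1, without strand and at the primary alignment of reads with several (STAR 2.7.5a, Picard 2.21.9, GATK 4.1.5.0-9 and Scanpy 1.8.1 also stand in the submitters' processing notes). The authors deposited these counts and the TPM made from them for 55385 genes in 48 mice. They also deposited counts corrected for batch with ComBat-seq, and TPM from those, for 19601 protein-coding genes in 42 mice. That correction models the groups while batches lack some of them, which can enlarge differences between groups or understate the spread within them.

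Groups came from the sample titles. The quasi-likelihood test of edgeR 4.0.16 (R 4.3.3) was applied to the corrected counts after filterByExpr by group and TMM scaling, with 4 groups in a single fit, no batch term and p values Benjamini-Hochberg adjusted over 14839 genes. Intervals are at 95% and cover the spread between mice only. TPM served for levels, overlap and correlations (pseudocount of 1; Python 3.11.15, scipy 1.17.1). Alternatives were DESeq2 1.42.0, limma 3.58.1 on log2 TPM, other scaling, filters, batch terms, single batches, all 48 mice and the replicate number as a block. On simulated data for PFF at 21% O2 with 14795 genes, 78 of 100 genes changed by 0.5 on the log2 scale and 95 of 98 changed by 1 were called, with 9 unchanged genes called.

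Members and gene lists were chosen with earlier results of these data known. Named genes are the 7 members, up to 4 called genes of smallest p per list, and the 5 genes most like each member; *Ntrk2*, *Rtn3*, *Malat1*, the *Rbm3* overlaps and markers were named beyond that rule. Positions of genes are those of the same identifiers in a GENCODE annotation of GRCm38. Neither the proteomics nor the RT-qPCR of the study was used here.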

Additional observations from a re-analysis of the deposited data

Results flagged for a closer look

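The interaction of injection and O2 was called for *Cirbp* and for *Rbm3* in edgeR's fit. The term was -0.69 on the log2 scale for *Cirbp* and -0.31 for *Rbm3*, the PFF effect at 11% O2 minus that at 21% O2, with PFF effects of 0.62 and 0.31 at 21% O2 and of -0.07 and -0.0044 at 11% O2. Both genes were proposed with these values known, so the terms are a description. The call of *Rbm3* was lost with the replicate block and with all 48 mice (adjusted p = 0.0521 and 0.0868), and both calls were lost in batch 1 alone (adjusted p = 0.512 for *Cirbp* and 0.521 for *Rbm3*). Among the 42 mice kept, none stood far from the others of its group in any of the 7 genes in the monomer and PFF groups at 11% O2, the 14 sets of values small enough for that comparison.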

How the results depend on the processing

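The calls for PFF against monomer at 21% O2 were lost in batch 1 alone. Over all genes that fit called 9, against 549 in the fit of all batches. No fit without batch 2 was run, so how far the calls rest on it was not tested. With batch 1 fitted alone 0 of the 7 genes were called in that comparison and 0 for the interaction; *Cirbp* was then 0.19 (adjusted p = 0.366 in edgeR's test) and *Rbm3* 0.16 (adjusted p = 0.413), and the interaction terms were -0.40 (adjusted p = 0.512) and -0.26 (adjusted p = 0.521). For 11% against 21% O2 in monomer mice, where 1 gene was called, the adjusted p alone called 3 and the counts before correction without a batch term called 2, adding *Rbm3* at 0.32. The interaction called 1 gene, *Cirbp*, in place of 2 when batch was a covariate and all 48 mice entered (*Rbm3* -0.29, adjusted p = 0.0868). Of the values for single genes, 453 stayed on the same side, 47 moved by more than the spread without a change of call, 6 lost and 5 gained a call, and 0 reversed while called; of the counts, 71 stayed within 1.5 times and 6 did not. Of the 21 pairs, 7 passed with rho, 7 with a pseudocount of 0.1, 8 with corrected TPM and 9 with all 48 mice.

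Replicate numbers do not pair the mice: the median correlation of same-numbered mice was between -0.20 and 0.0570 in the 4 comparisons. With the replicate number as a block the interaction called 1 gene, *Cirbp*, since *Rbm3* had -0.32 (adjusted p = 0.0521), and the block changed no other call of the 7 genes.

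Over all genes the calls fell from 549 to 9 in batch 1 alone for PFF at 21% O2, from 1073 to 297 in batch 1 alone for 11% O2 in monomer mice and from 318 to 11 in batch 1 alone for the interaction. On the counts before correction with batch as a covariate they were 657 for 11% O2 in monomer mice, and for the interaction 1.39% of genes in 42 mice, against 2.14% on corrected counts, and 152 genes in 48 mice. For 11% O2 in PFF mice they fell from 86 to 57 on the counts before correction without a batch term and to 6, 7 and 2 in batches 1, 2 and 3 alone. Between PFF and monomer mice at 11% O2, where 0 were called, DESeq2 and the fit without the monomer mouse harvested a week late called 1 each.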
